A study of Homo sapiens with 41 samples.

Results

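The aquaporin genes AQP1, AQP2, AQP3, AQP5, AQP6 and AQP7 are 6 of the 19974 protein-coding genes in the RefSeq table of GRCh38.p14, the hg38 build of the peak lists. They were taken by name and not by any value measured here. AQP1 stands alone on chromosome 7 (30911853 to 30925516, plus strand). AQP7 (33383191 to 33402568) and AQP3 (33441160 to 33447593) are both on the minus strand of chromosome 9, 38.6 kb apart, and are treated as 1 locus, the chromosome 9 pair. AQP2 (49950737 to 49958878), AQP5 (49961872 to 49965682) and AQP6 (49972947 to 49977139) lie within 26403 bp of chromosome 12, AQP2 and AQP5 on the plus strand, and form another locus, the chromosome 12 cluster. The non-coding genes AQP5-AS1 and LOC105369764 overlap this cluster, and LOC105376020 overlaps the start of AQP7. The nearest protein-coding neighbours are RACGAP1, 12.02 kb past AQP6, NFX1, 12.03 kb past AQP7, and NOL6, 13.8 kb upstream of AQP3.

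Aquaporins are channels of the cell membrane through which water follows an osmotic gradient. AQP1, AQP2 and AQP5 are water channels, known from red cells and endothelium, from the vasopressin-controlled collecting duct of the kidney and from secretory glands respectively, and AQP6 sits in intracellular vesicles of kidney cells. AQP3 and AQP7 are aquaglyceroporins, which also pass glycerol, AQP3 in many epithelia and AQP7 in fat cells. Hypertonic medium is known to raise transcription of several aquaporins in kidney and other epithelial cells. CTCF is the DNA-binding protein at which the cohesin ring, with its subunit RAD21, halts while it extrudes loops of chromatin.

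The cells were T47D, an established line of luminal breast carcinoma, kept without steroid hormones and then without serum, in every group. Salt stress was 110 mM NaCl by the titles and 100 mM by the series text, and chromatin immunoprecipitation with sequencing gave 29 peak lists, each from 1 library. Pol II was mapped without stress and after 1 h of NaCl (2 libraries each). CTCF was mapped without stress (3), at 7.5 min (2), 30 min (1) and 1 h (3), and RAD21 unstressed, after 1 h of NaCl, and after a further 1 h of isotonic recovery (3 each). A set of 12 libraries whose titles carry no replicate number, called set 2 here, supplied the third library of each 3 and the CTCF recovery sample. It also held 6 libraries titled with triptolide, a drug that blocks the start of transcription. Only some of these titles say pre-treatment, and none gives the dose, 500 nM. In 6 of these 12 libraries the pre-treatment tag disagrees with the title, and the titles were followed. One of them is the third RAD21 recovery library, and another is the CTCF recovery library, both tagged as triptolide-treated. Replicate tags also differ from the titles for the second Pol II libraries and the 30 min CTCF library, and again the titles were used.

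The lists hold no read totals, so depth is known only through the number of peaks, 20678 to 59843 for CTCF, 3344 to 40969 for RAD21 and 88046 to 216968 for Pol II. Nothing in the labels says that replicates were separate cultures, so a p-value here measures the spread between libraries, which may be technical. An exact permutation test cannot go below p = 0.333 with 2 libraries against 2, or below p = 0.1 with 3 against 3. A difference is therefore called where the libraries of the groups do not overlap, and the share of all tested genes or sites called in the same way is given beside it. Peak lists from bulk chromatin do not tell apart binding in fewer cells from weaker binding in every cell. Of 10 luminal breast markers, the median share of the gene covered by Pol II was 100% and 91.0% without stress. At 1 h it was 21.3% and 73.9%, with 4 called lower and 1 higher. For 5 haematopoietic markers it was 6.42% and 10.3% without stress and 23.5% and 35.1% at 1 h. Of those, 1 was lower and 2 were higher. For 5 fibroblast markers it was 1.16% and 0% without stress and 6.23% and 2.22% at 1 h, with 0 lower and 2 higher. The median was 0% in all 4 libraries for 5 endothelial and red cell markers, of which 3 had some coverage and 2 were higher in both 1 h libraries. It was 4.58% and 0.290% without stress and 7.55% and 3.97% at 1 h for 5 kidney tubule markers, not all of the collecting duct. Of these 5, 4 had some coverage and 3 were higher at 1 h (SCNN1G, UMOD and SLC12A1). Over all 18148 protein-coding genes with any coverage, 17.7% were higher in both 1 h libraries and 38.7% were lower. HBB, a globin gene of red cells, and AVPR2, the vasopressin receptor of the collecting duct, were at 0% in all 4. KRT18, a keratin gene of luminal cells, was also at 0% in all 4, so a value of 0% does not show that Pol II was absent.

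Sequence at the starts of AQP3, AQP7 and AQP5 is shown because CTCF and RAD21 peaks touched the start of AQP3 and of no other of the 5 aquaporins in the RefSeq promoter table, which has no entry for AQP6. Each run is the 250 bases before the gene's start, read 5′ to 3′ on the gene's strand from the RefSeq table of GRCh38.p14, at chr9:33447594-33447843 (minus) for AQP3, chr9:33402569-33402818 (minus) for AQP7 and chr12:49961622-49961871 (plus) for AQP5. Capitals mark AGGNGGC, a short part of the CTCF motif, on either strand, and TATAAA, the TATA box, and no match of one overlaps a match of the other.
AQP3: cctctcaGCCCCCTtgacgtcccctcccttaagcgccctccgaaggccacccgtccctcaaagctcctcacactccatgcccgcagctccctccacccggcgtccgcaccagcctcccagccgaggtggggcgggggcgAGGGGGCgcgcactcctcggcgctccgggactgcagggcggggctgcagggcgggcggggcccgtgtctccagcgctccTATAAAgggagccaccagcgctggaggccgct
AQP7: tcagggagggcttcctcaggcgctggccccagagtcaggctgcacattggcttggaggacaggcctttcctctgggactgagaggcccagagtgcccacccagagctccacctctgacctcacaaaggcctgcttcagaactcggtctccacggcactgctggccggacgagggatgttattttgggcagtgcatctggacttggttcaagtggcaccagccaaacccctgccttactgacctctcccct
AQP5: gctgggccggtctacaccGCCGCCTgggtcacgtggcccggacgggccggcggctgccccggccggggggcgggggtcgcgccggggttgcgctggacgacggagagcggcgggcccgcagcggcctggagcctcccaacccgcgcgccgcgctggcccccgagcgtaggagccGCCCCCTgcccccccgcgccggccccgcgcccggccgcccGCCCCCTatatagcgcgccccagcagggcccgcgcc
Over the 300 bases from 250 before to 50 after the start, G and C made up 75.3% at AQP3, 84.0% at AQP5, 65.3% at AQP1, 62.7% at AQP7 and 57.7% at AQP2, against a median of 62.7% over 15812 promoters. AQP5 stood at the 99.5 percentile and AQP3 at the 89.0 percentile. CpG dinucleotides were 0.757 of the number expected from base content at AQP3 and 0.928 at AQP5, close to or above the median promoter (0.763), and 0.272 to 0.450 at AQP7, AQP1 and AQP2. AGGNGGC was found at AQP1, AQP3 and AQP5, and in 42.1% of all promoters. In AQP3 its matches start at positions -243 and -111 from the gene's start. TATAAA was found on the gene's own strand at -32 in AQP3, -30 in AQP1 and -29 in AQP2, and in 9.64% of all promoters on either strand. A longer CTCF core motif (in 0.512% of promoters), the tonicity element core bound by NFAT5 (3.87%), TGGAAA (17.5%) and TGANTCA, the AP-1 site (5.76%), each searched on both strands, had no match in these 5 windows, which says only that those letters are not there.

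Pol II regions covered 0% to 15.9% of each aquaporin gene without stress, and 0% to 100% after 1 h of NaCl. AQP3 was covered over a larger part of its span in both stressed libraries, AQP2 over none of it in either, and AQP1, AQP5, AQP6 and AQP7 overlapped between the groups. Coverage here is the percent of a gene's bases that lie in the authors' broad Pol II regions. Of the 6 genes, 1 was thus called lower and 1 higher, while 38.7% of 18148 protein-coding genes with any coverage were called lower and 17.7% higher. The members' median difference was 9.31 percentage points. Over all 19974 protein-coding genes, those without coverage included, the median was -1.61. The median gene of these 19974 had 10.4% and 9.22% of its span covered without stress and 2.93% and 7.27% at 1 h.

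Among the water channels, AQP2 had 14.1% and 10.3% of its span covered without stress (12.2 ± 2.68%, SD, n = 2) and 0% in both 1 h libraries. The groups did not overlap (exact permutation p = 0.333, 2-sided, n = 2 against 2). Its coverage came from its 3′ end: in both unstressed libraries a region of 3.49 and 3.54 kb began inside the last part of AQP2 and ran toward AQP5, ending before the start of that gene. Without 1 kb at each end of the gene, AQP2 kept 1.20% on average without stress and the call ended. AQP5 had 15.2% and 14.8% without stress, from a region of 580 and 565 bp at nearly the same place inside the gene in both libraries. At 1 h it had 0% and 59.3%, so the stressed libraries lay on either side of the unstressed ones. AQP6 read 15.9% and 0% without stress and 0% and 65.8% at 1 h, and here too the second stressed library alone was high. AQP1 was covered at 9.73% in the second unstressed library, 1.38% in the second stressed one and 0% in the first of each. Without the first unstressed library it was called lower, by -9.05 points.

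Among the aquaglyceroporins, AQP3 had 8.999% and 11.8% of its span covered without stress (10.4 ± 1.97%, SD, n = 2) and 100% and 53.6% at 1 h (76.8 ± 32.8%). Both stressed libraries lay above both unstressed ones (exact permutation p = 0.333, 2-sided). The difference of 66.4 points was 43.2 without the first stressed library. Without stress the coverage included a region of 644 and 301 bp across the start of AQP3, at the place of its promoter peak of CTCF and RAD21. At 1 h the first library held a single region of 30.4 kb that spanned all of AQP3 and reached into NOL6, and the second held a region of 5.84 kb over the downstream part of the gene that did not reach its start. AQP7 had 13.5% and 7.57% without stress and 7.64% and 21.4% at 1 h, which overlap. The chromosome 9 pair as 1 locus, from AQP7 through AQP3, had 11.9% and 11.6% without stress and 41.5% and 29.1% at 1 h (11.8 ± 0.217% against 35.3 ± 8.78%, exact permutation p = 0.333). The chromosome 12 cluster had 21.7% and 19.8% without stress and 0% and 20.3% at 1 h, with the second stressed library between the unstressed ones. Without that library the difference was -20.8 points and the groups did not overlap, and without unstressed replicate 2 it was -11.6, again with no overlap.

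**Figure D1:**
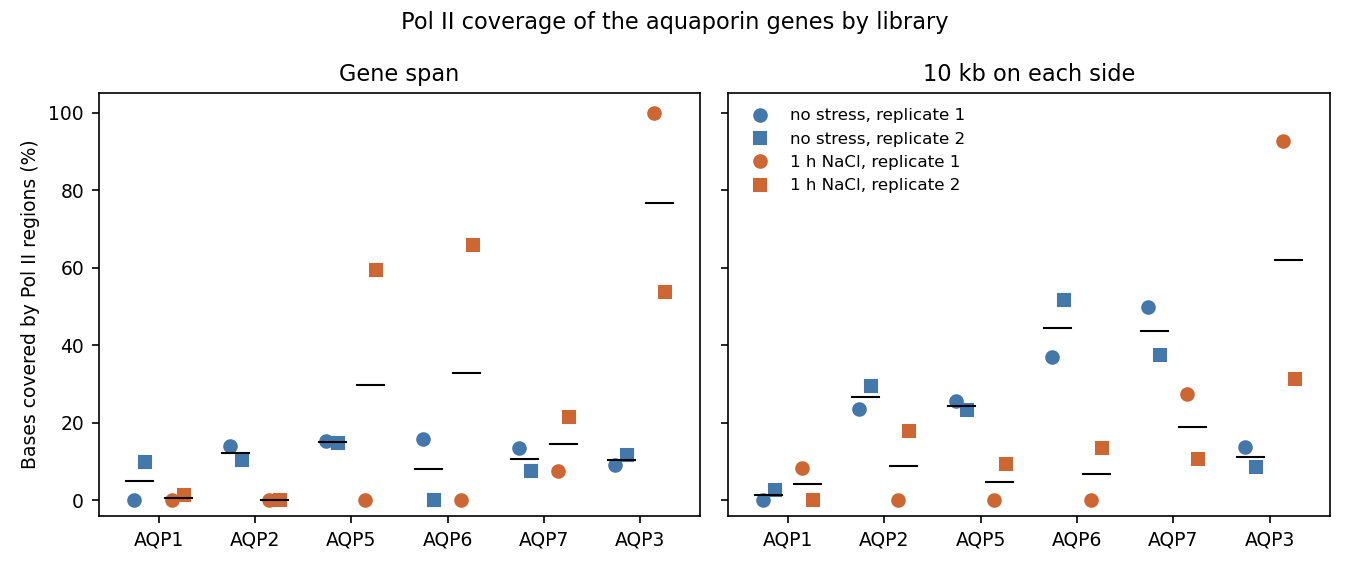
Percent of bases covered by Pol II regions for each aquaporin gene (left, gene span; right, the 10 kb on each side), with 1 point per library, circles for replicate 1, squares for replicate 2, blue without stress, orange after 1 h of NaCl and a black line at the mean of 2. AQP3 sits at 100% and 53.6% after NaCl against 8.999% and 11.8% before, while AQP5 and AQP6 are high in the second stressed library alone.

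The regions behind these values were weak at 1 h. Each region in the lists carries the authors' fold enrichment, a ratio over the background of the peak caller, and a -log10 q value. The 30.4 kb region over AQP3 had a fold enrichment of 1.12 and a -log10 q of 0.132, and the 5.84 kb region in the second stressed library had 1.04 and 0.00915. Of the regions on member genes, 7 in each unstressed library and 4 and 7 in the stressed ones, a -log10 q of at least 1.3 was reached by 2, both in the second unstressed library. They were a region of 1.33 kb inside AQP1 with a fold enrichment of 2.93 and -log10 q of 4.12, and that in AQP5 with 1.60 and 1.48. With regions of at least that q alone, AQP3 was at 0% in all 4 libraries. The chromosome 9 pair was then called lower at 1 h, by -3.11 percentage points, the opposite of its call with all regions. The chromosome 12 cluster, not called with all regions, was also called lower (-2.45 points). A larger share of regions fell under this q at 1 h in the whole lists as well, 80.0% and 92.4% against 50.0% and 48.5% without stress.

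The replicates differed in where these regions lay. Within the spans and 10 kb around them, 13 of 17 regions of unstressed replicate 1 and 15 of 20 of replicate 2 overlapped a region of the other replicate, compared with 4 of 13 and 6 of 18 at 1 h. All of the overlapping regions at 1 h were at the chromosome 9 pair. The chromosome 12 cluster had 8 and 7 regions without stress, 0 in the first stressed library and 6 in the second. The places shared by both unstressed libraries included the CTCF site between AQP5 and AQP6 and the CTCF site 13.0 kb upstream of AQP7, described below. The difference in recurrence was not tested.

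**Figure D2:**
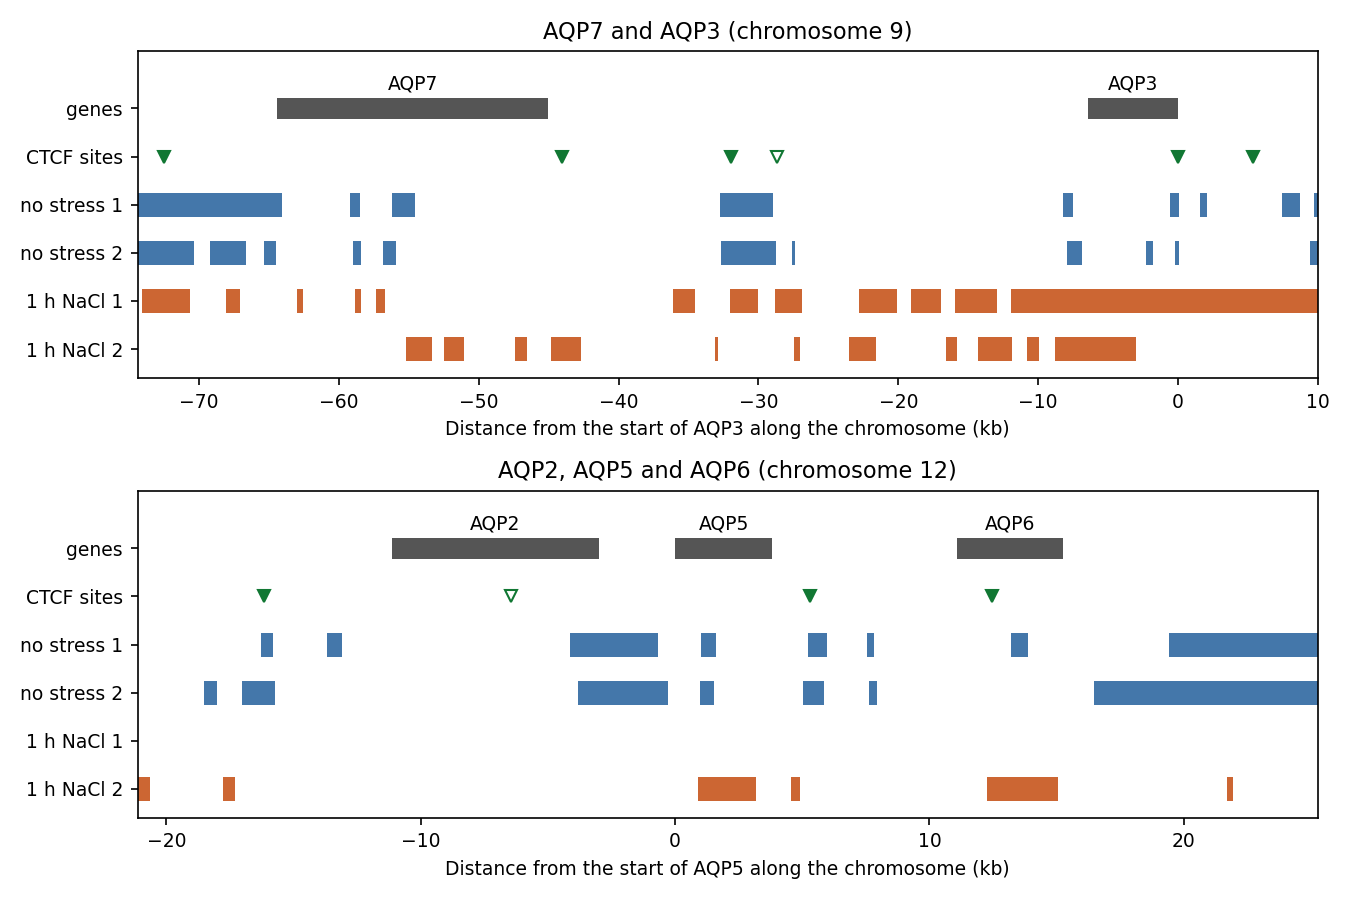
Pol II regions (bars) in each of the 4 libraries across the chromosome 9 pair and the chromosome 12 cluster with 10 kb on each side, drawn as distance in kb along the chromosome from the start of AQP3 or AQP5, with gene spans in grey and CTCF sites as triangles, filled where RAD21 was also called in at least 1 list. The first stressed library has no region in the chromosome 12 window and a 30.4 kb region across AQP3, drawn up to the window's edge.

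The 10 kb flanks were lower at 1 h around 4 of the 6 genes and higher around AQP3. Over all 18852 protein-coding genes with any flank coverage, 41.7% were lower and 15.1% higher. The flanks of AQP2 had 23.7% and 29.5% without stress and 0% and 17.8% at 1 h, those of AQP5 25.5% and 23.3% against 0% and 9.40%, and those of AQP6 37.0% and 51.8% against 0% and 13.4%. These windows share bases, so they are not independent. As 1 locus, the flanks of the chromosome 12 cluster had 34.7% and 53.0% without stress and 0% and 5.93% at 1 h (exact permutation p = 0.333). The flanks of AQP7 had 50.0% and 37.4% against 27.4% and 10.6%. On the side toward NFX1 alone, AQP7 had 100% and 74.9% without stress and 44.2% and 0% at 1 h, and on its upstream side 0% in both unstressed libraries and 10.7% and 21.2% at 1 h. The flanks of AQP3 had 13.8% and 8.49% without stress and 92.8% and 31.3% at 1 h, and those of AQP1 0% and 2.62% against 8.21% and 0%. Divided by the share of all gene flanks covered in the same library, the calls at AQP2 and AQP7 ended. With regions of -log10 q of at least 1.3, those at AQP3, AQP5, AQP7 and the chromosome 12 cluster ended, and the difference at AQP3 was then -4.23 points, while AQP2 (-4.79) and AQP6 (-2.96) remained called. Without the first stressed library the difference was 20.2 points at AQP3 instead of 50.9, and -8.75 at AQP2 instead of -17.7. Without the second it was 81.7 at AQP3, -26.6 at AQP2 and -16.3 at AQP7, which was -24.7 with all libraries.

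Of 4 neighbouring genes, 1 was higher and 3 were lower, too few to compare with the 17.7% higher and 38.7% lower among all genes with coverage. NOL6, a nucleolar protein gene upstream of AQP3, had 17.1% and 3.63% of its span covered without stress and 77.5% and 67.5% at 1 h. In the first 1 h library the 30.4 kb region over AQP3 covered part of NOL6, so the values of these genes are not independent. NFX1, a zinc finger factor gene past AQP7, had 96.1% and 88.3% without stress and 2.24% and 4.83% at 1 h, and RACGAP1, a gene of cell division past AQP6, 32.2% and 17.5% against 1.31% and 2.74%. AQP3 therefore lay beside a gene with higher coverage at 1 h, and AQP7 and AQP6 beside genes with lower coverage. MINDY4, 19.5 kb before AQP1, had 13.4% and 19.9% without stress and 9.08% and 5.90% at 1 h. These neighbours were named by distance alone.

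The lists of other genes are read against the same shares over all genes with any coverage, 38.7% lower and 17.7% higher. Any coverage was found for 11 of the 12 hypertonicity genes and 13 of the 14 vasopressin and cAMP genes below. Of the 8 other aquaporins, AQP9, AQP10 and AQP12B were called higher and AQP11 lower. AQP10, another aquaglyceroporin, read 15.1% and 18.7% without stress and 100% and 51.4% at 1 h. Of 11 genes of glycerol handling, 2 were lower, GPD1 and LIPE, and 1 was higher, MGLL, both counts below those shares. Of 12 genes of the hypertonicity response, 3 were lower, among them NFAT5 and SLC6A6, and 2 were higher, SLC6A12, the betaine transporter, and SGK1. Of 14 genes of vasopressin and cAMP signalling toward water channels, 9 were lower and 0 higher, among them ADCY6, an adenylyl cyclase, at 100% and 100% without stress and 0% and 11.3% at 1 h. The genes whose coverage over the 4 libraries was nearest to that of AQP5, the member with the highest mean without stress, were JRKL, LOC124903151, PRSS33, SPRR4 and LOC124903211 of 1858 genes of like length, at a Euclidean distance of 15.997 to 18.6 percentage points.

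CTCF was still called at most of its sites around the aquaporins under salt stress. Overlapping CTCF and RAD21 peaks of all 25 lists merged into 11 sites within the spans or 10 kb of them, 1 at AQP1, 6 at the chromosome 9 pair and 4 at the chromosome 12 cluster. CTCF was called at all 11 in at least 1 list and RAD21 at 8 of them, and no site had RAD21 alone. Of the 7 sites with CTCF in all 3 unstressed libraries, 5 had it in all 3 libraries at 1 h and 0 were absent from all of those. Over the genome, 57.1% of 25596 sites with CTCF in all 3 unstressed libraries were kept in all and 5.85% lost from all. Those sites were merged from the unstressed and 1 h CTCF lists alone and not from all 25, so they are not defined alike. The number of CTCF peaks at the chromosome 9 pair was 6, 4 and 5 without stress and 4, 4 and 4 at 1 h (exact permutation p = 0.4). At the chromosome 12 cluster it was 3, 4 and 3 against 3, 2 and 3 (exact permutation p = 0.6), and at AQP1 1, 0 and 0 against 0, 0 and 0. None of the 3 loci and none of the 6 genes was called, and 7.92% of 17040 genes with a CTCF peak were called lower. Without unstressed replicate 2 the chromosome 9 pair was called, at -1.5 peaks.

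At 7.5 min of NaCl the chromosome 9 pair had 4 and 4 CTCF peaks, against 6 and 4 in the unstressed libraries of the same numbers. The chromosome 12 cluster had 3 and 3 against 3 and 4, and AQP1 0 and 0 against 1 and 0. None was called, while 25.8% of 16296 genes were lower. Without unstressed replicate 2 the pair was called (-2 peaks), as was AQP1 (-1), and without replicate 1 the cluster (-1). The 30 min library, without a replicate, had 4 peaks at the chromosome 9 pair, 3 at the chromosome 12 cluster and 0 at AQP1.

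RAD21 was called at fewer places in both clusters at 1 h, in lists that were shorter as a whole. The chromosome 9 pair had 3, 3 and 4 RAD21 peaks without stress (3.33 ± 0.577, SD, n = 3) and 1, 2 and 1 at 1 h (1.33 ± 0.577; exact permutation p = 0.1, 2-sided). The chromosome 12 cluster had 3, 3 and 3 without stress and 1, 2 and 1 at 1 h (exact permutation p = 0.1). In both loci every stressed library lay below every unstressed one, and AQP1 had no RAD21 peak in any of the 12 lists. By gene, AQP5 and AQP6 were called, each with 2, 2 and 2 peaks without stress and 1, 1 and 1 at 1 h, from windows that share the same peaks. Without stressed replicate 2, AQP2 and AQP3 were called as well, at -1.33 peaks each instead of -1. Over 12315 genes with a RAD21 peak, 24.4% were called lower. The RAD21 lists held 13762 to 24931 peaks without stress and 4761 to 7843 at 1 h. With the 4761 strongest peaks of each library, the difference was 0 at the chromosome 9 pair and -0.667 peaks at the chromosome 12 cluster, and neither was called. The call at the chromosome 12 cluster, and those at AQP5 and AQP6, also ended with each merged site counted once (-1.33 for the cluster).

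**Figure D3:**
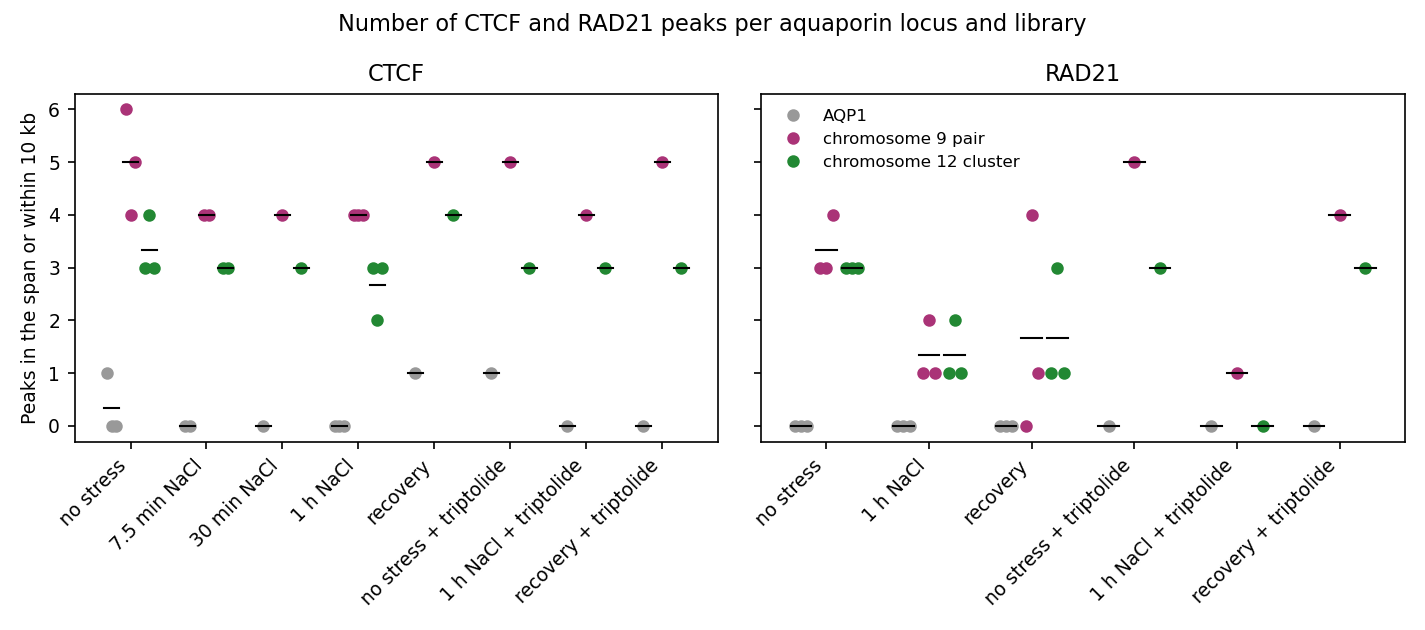
Number of CTCF (left) and RAD21 (right) peaks in the span of each aquaporin locus or within 10 kb of it, with 1 point per library and a black line at the mean of the condition. RAD21 stands at 3 or 4 peaks in both clusters without stress and at 1 or 2 after 1 h of NaCl. In recovery without triptolide in the title, 1 library is high and the others are not.

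Of the 3 sites with RAD21 in all unstressed libraries, 2 had it in all 3 libraries at 1 h and 0 were absent from all of them. Over the genome, 34.5% were kept and 32.4% lost of 10098 sites with RAD21 in all unstressed libraries. Those were merged from the unstressed and 1 h RAD21 lists alone, so they are not defined like the sites here. Every RAD21 peak at these loci lay over a CTCF peak from that condition, 19 of 19 without stress, 8 of 8 at 1 h and 53 of 53 over all conditions. These peaks are repeated calls at 8 sites and not independent, and no share over the genome is given. The sites that kept RAD21 are the one just upstream of AQP7 and the one between AQP5 and AQP6.

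The site upstream of AQP7 (chromosome 9, 33403081 to 33403922) has its summit 0.95 kb before the start of the gene, inside LOC105376020. CTCF was called there in all 13 lists and RAD21 in 11 of 12. Its RAD21 fold enrichment, the authors' value per peak, was 13.1, 9.68 and 12.6 without stress and 5.39, 5.78 and 6.52 at 1 h. In recovery, replicate 1 had no peak and replicates 2 and 3 had 12.9 and 4.73. Among the peaks of their own lists the unstressed values stood at the 76.3, 67.4 and 78.1 percentile and the stressed ones at the 21.2, 29.3 and 49.8 percentile. The lists differ in length, so neither fold nor rank is a measure of change.

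Between AQP5 and AQP6 (chromosome 12, 49966737 to 49968041), 5.31 kb downstream of the start of AQP5, CTCF was again called in all 13 lists. RAD21 was called in 11 of 12 and was missing from the 1 h library with triptolide. The RAD21 fold enrichment was 12.2, 13.3 and 8.24 without stress, 5.34, 6.66 and 3.93 at 1 h and 6.79, 15.2 and 4.75 in recovery. It was the only one of the 11 sites with RAD21 in all 3 recovery libraries.

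The start of AQP3 (chromosome 9, 33447245 to 33447925, summit 29 bp inside the gene) had CTCF in 7 of 13 lists, and its record differed by set. In set 1 it had CTCF in unstressed replicate 1, at a fold enrichment of 13.6, but not in unstressed replicate 2. None of the 7.5 min, 30 min or 1 h libraries of that set had it. In set 2 it was among the strongest CTCF peaks of the list without stress, at 25.1 and the 95.6 percentile, and was still called at 1 h, at 5.17 and the 44.3 percentile. With triptolide the values were 22.2 without stress, 4.14 at 1 h and 18.2 in recovery, and the recovery library without triptolide in its title had 25.8. RAD21 was called there in unstressed replicates 1 and 2, at 5.98 and 5.86, in recovery replicate 2, at 6.33, and with triptolide without stress and in recovery, at 8.12 and 4.25. In all 4 RAD21 libraries under stress, triptolide included, no peak was called. CTCF peaks touched 26.95% of all promoters in the unstressed library of set 2 and 17.5% and 7.46% in unstressed replicates 1 and 2. At 1 h they touched 14.4% in set 2 and 12.4% and 7.78% in replicates 1 and 2. RAD21 peaks touched 8.41%, 11.1% and 6.14% of all promoters in unstressed replicates 1, 2 and 3. At 1 h those shares were 0.930%, 5.06% and 1.08%, so RAD21 was called at fewer promoters in general.

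Upstream of AQP3, at 5.37 kb (chromosome 9, 33452660 to 33453264), CTCF was called in all 13 lists. RAD21 was called in 2 of 3 unstressed libraries, 1 of 3 at 1 h and 1 of 3 in recovery. The intergenic site 13.0 kb upstream of AQP7 (chromosome 9, 33415261 to 33416031) also had CTCF in all 13, with RAD21 in 2 of 3 libraries without stress and 0 of 3 at 1 h. Past the 3′ end of AQP7, 27.5 kb from its start (chromosome 9, 33374827 to 33375381), CTCF was called in 11 lists and was missing from both 1 h libraries of set 2. RAD21 was called there in 1 unstressed library and in the unstressed triptolide library. The sixth site of the pair was a weak CTCF peak of 1 list.

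Upstream of AQP2, at 5.01 kb (chromosome 12, 49945349 to 49946051), CTCF was called in all 13 lists. Its RAD21 was called in all 3 unstressed libraries, at fold enrichments of 11.1, 7.97 and 4.25, in 1 library at 1 h, at 4.89, and in 1 in recovery, at 6.22. The site inside AQP6 (chromosome 12, 49973928 to 49974859), 1402 bp past the lower end of the gene, had CTCF in 10 lists. Those were all 3 without stress, 1 of 2 at 7.5 min, not the 30 min library and 2 of 3 at 1 h. RAD21 was called there in 2 of 3 unstressed libraries, 0 of 3 at 1 h and 1 of 3 in recovery. The fourth site of the cluster, inside AQP2, was called in the CTCF recovery list alone, at a fold enrichment of 2.41. The single site of AQP1, 2.97 kb upstream of its start, had CTCF in 3 lists at 3.71 to 5.63 and no RAD21. Just outside the 10 kb window, 12.9 kb past AQP1, CTCF was called in all 13 lists and RAD21 in 1, and 10.9 kb past AQP7 CTCF was called in 9 lists and RAD21 in 6. At the latter, RAD21 was called in all 3 unstressed libraries and in 0 of 3 at 1 h. A site 11.8 kb before AQP2 had CTCF in 1 unstressed list and RAD21 in the unstressed triptolide list alone.

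**Figure D4:**
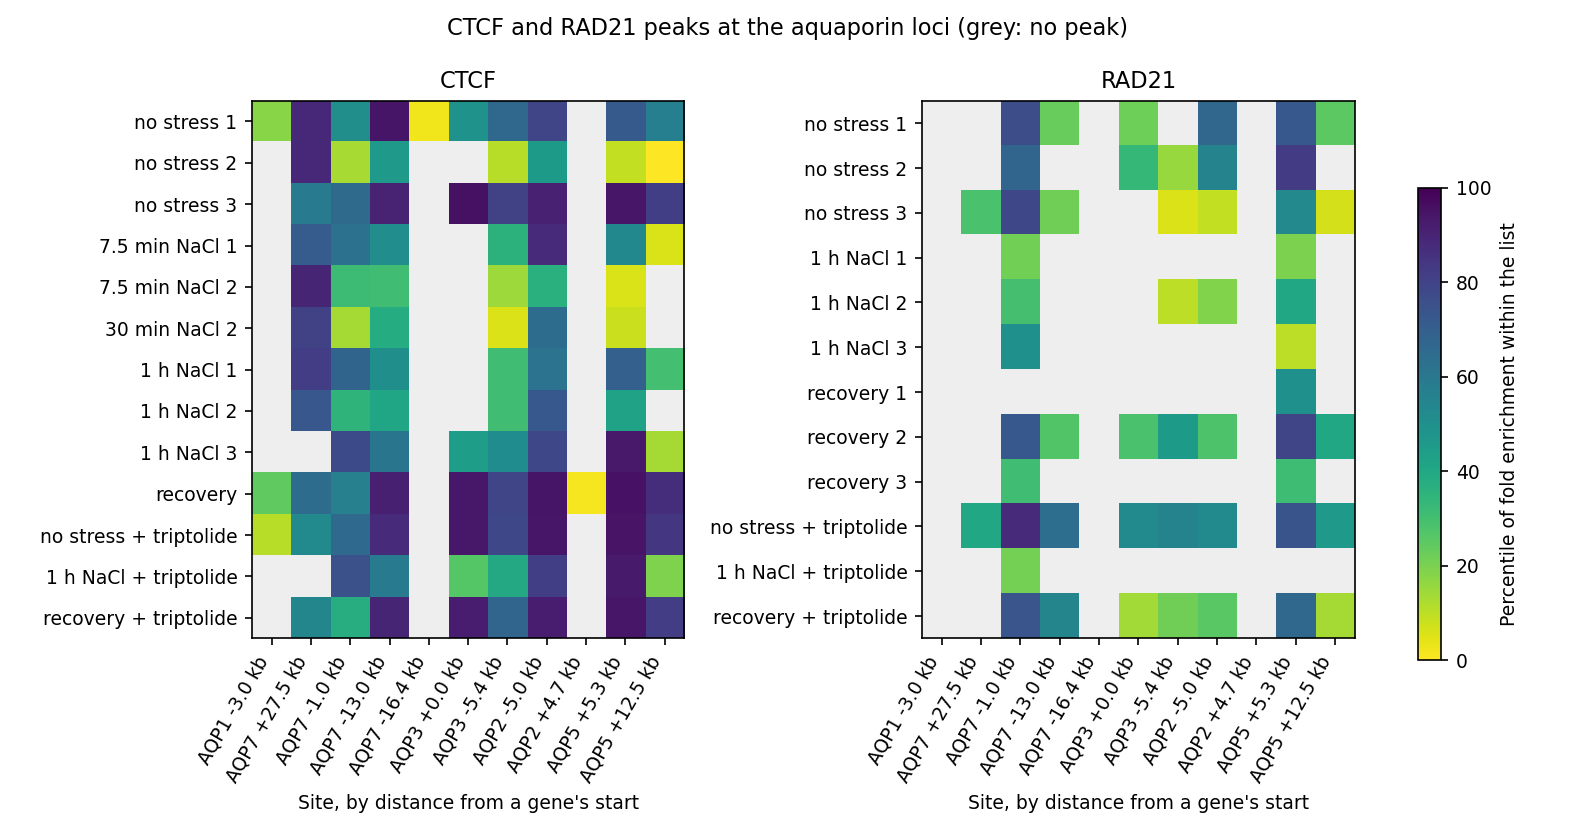
CTCF (left) and RAD21 (right) at the 11 sites, in columns named by distance in kb from a gene's start, positive downstream, with 1 row per list. Colour gives the percentile of the peak's fold enrichment within its own list, and grey marks no peak. RAD21 rows at 1 h hold 1 to 4 of the 11 sites, while CTCF rows at 1 h hold 6 or 7.

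With libraries grouped by their titles, recovery in isotonic medium did not raise the RAD21 count beyond the spread of the libraries. The chromosome 9 pair had 0, 4 and 1 RAD21 peaks in recovery, against 1, 2 and 1 at 1 h, and the chromosome 12 cluster 1, 3 and 1 against 1, 2 and 1 (exact permutation p = 1 for both). Neither was called, and 1.89% of 10944 genes were called higher. Recovery replicate 2 alone was high, with RAD21 at 7 of the 11 sites against 1 and 2 in the others, in a list of 20400 peaks against 4397 and 6492. Without that library the differences were -0.833 and -0.333 peaks, so by the titles the direction rests on it. Both comparisons share the 1 h libraries. The third recovery library is tagged as triptolide-treated and would leave this group if its tag were right. The recovery library titled with triptolide had 4 RAD21 peaks at the chromosome 9 pair and 3 at the chromosome 12 cluster.

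Triptolide was represented by 1 library per condition, so values are given without a test, and exact Clopper-Pearson 95% intervals cover counting error alone. In set 2, RAD21 was called without stress at 7 of the 11 sites (63.6%, 30.8 to 89.1%), and at 8 in the library titled with triptolide (72.7%, 39.0 to 94.0%), which are all of the sites where RAD21 was ever called. At 1 h it was called at 2 sites (18.2%, 2.28 to 51.8%) and, with triptolide, at 1, the site upstream of AQP7 (9.09%, 0.230 to 41.3%). In recovery it was called at 2 and, with triptolide in the title, at 7 (63.6%, 30.8 to 89.1%). The recovery library with 2 sites is itself tagged as triptolide-treated, so this comparison rests on the titles. CTCF was called at 8 and 9 sites without stress, 7 and 7 at 1 h and 10 and 8 in recovery, without and with triptolide in the title. The RAD21 lists held 24931 and 40969 peaks without stress, 6630 and 3344 at 1 h and 6492 and 22967 in recovery. With the 3344 strongest peaks of each RAD21 list, the unstressed libraries with and without triptolide and the recovery library with it had 1 of the 11 sites each (9.09%).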

How the data were processed

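Each deposited list comes from 1 library and has the layout MACS2 writes. Per the submitters' processing notes the tools were cutadapt, Bowtie2 2.2.6 and MACS2 with hg38, and for set 1 also DiffBind 2.4.6, DESeq2 and HOMER. Thresholds and controls of the calling are not stated in them, and 12 input samples were not used here. Each region or peak in the lists carries the authors' fold enrichment (a ratio over the caller's background) and the authors' deposited -log10 p and -log10 q, used only to describe, rank or filter within a list. The deposited summit offset gave summit positions.

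Peaks on chromosomes 1 to 22 and X were kept. The tools were scipy 1.17.1, pandas 2.3.3, matplotlib 3.10.9 and numpy 2.4.6 under Python 3.11.15. Gene spans came from RefSeq GRCh38.p14, and all 6 members matched by symbol. Promoters matched for 5. Per library, the percent of each span and of its 10 kb flanks covered by Pol II regions, and the CTCF and RAD21 peaks that overlap the span or 10 kb of it by 1 bp, were computed. Overlapping peaks of all CTCF and RAD21 lists were merged into sites. For the shares of sites over the genome, only the unstressed and 1 h lists of each protein alone were merged. Groups were compared by exact 2-sided permutation over libraries and by whether they overlap. Genes with no coverage or no peak in every library compared were left out of the shares called. Coverage and peak counting were tested on simulated lists. No 2 lists were identical (0 pairs).

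The members, lists, tests and alternatives were chosen with earlier results of these data known. Some genes of the lists are not reported here by name. All members are named, neighbours are named by distance, and the genes most like AQP5 by Euclidean distance of coverage among genes on other chromosomes with a span of 0.667 to 1.5 times its own. CTCF libraries of equal number, and those of set 2, departed from their group means in the same direction (r = 0.463, 0.608 and 0.69 across 9227 genes), a pairing that rests on the titles for replicates 1 and 2 and on the shared set for the third. Unequal numbers within set 1 also gave positive values (0.323 and 0.187), so number and shared set are not told apart for replicates 1 and 2. Alternatives were region and peak filters, window and flank sizes, scaling, equal list lengths, each library left out, the replicate block and, added after seeing the data, each merged site counted once.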

Additional observations from a re-analysis of the deposited data

How the results depend on the processing

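With Pol II regions of -log10 q of at least 1.3 the calls at the spans of AQP2 and AQP3 and the flanks of AQP3, AQP5, AQP7 and the chromosome 12 cluster ended, while the flanks of AQP2 (-4.79) and AQP6 (-2.96) remained called. The 1 h difference then was -3.11 points over the chromosome 9 pair and -2.45 over the chromosome 12 cluster, both called lower. Over AQP5 it was -7.41, and in the flanks -1.31 at AQP1, -4.23 at AQP3 and -1.555 at the chromosome 12 cluster. None of these was called. Without 1 kb at each span end, the chromosome 12 cluster differed by -13.0 points and its groups did not overlap. Scaled to all genes, the flanks of the chromosome 9 pair changed sign (0.401), and with 20 kb flanks AQP1 did (-1.68). With equal numbers of strongest peaks, the CTCF difference became 0.333 at the chromosome 9 pair and at AQP3, the RAD21 difference at 1 h 0 at that pair and -0.667 at the chromosome 12 cluster, and the RAD21 recovery difference -0.333 at the pair. Fold enrichment of at least 5 gave -1.33 for RAD21 at the chromosome 12 cluster, as did counting each merged site once, and 0.333 for CTCF at AQP2. A 25 kb window gave 0.333 for RAD21 recovery at AQP7 and -1 for CTCF at 7.5 min at the chromosome 12 cluster. The RAD21 shares of set 2 without stress, with and without triptolide, and in recovery with triptolide became 9.09%. The cause of these shifts was not tested, beyond the shorter lists that equal numbers make.

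Leaving out 1 library moved the Pol II span difference from -9.05 to 0.688 at AQP1, from -15.0 to 44.3 at AQP5, from -7.94 to 57.9 at AQP6, from -2.91 to 10.9 at AQP7, from 43.2 to 89.6 at AQP3, from 17.3 to 29.8 at the chromosome 9 pair and from -20.8 to -0.407 at the chromosome 12 cluster. In the flanks it ran from -1.31 to 6.895 at AQP1 and from -50.4 to 21.7 at the chromosome 9 pair, where the groups did not overlap without either stressed library, and at AQP1 without the second (6.895). CTCF at 1 h ran from -1.5 to -0.5 at the chromosome 9 pair. At 7.5 min it ran from -2 to 0 there, from -1 to 0 at the chromosome 12 cluster and from -1 to 0 at AQP1. RAD21 in recovery ran from -0.833 to 1.17 at the chromosome 9 pair, from -0.333 to 0.667 at the chromosome 12 cluster and, by gene, from -0.333 to 0.667 at AQP3. With a replicate block, an exact sign-flip permutation of the paired differences gave p = 0.25 for RAD21 at 1 h at both loci (-2 and -1.67 peaks) and p = 0.5 for the Pol II difference of 23.5 points at the chromosome 9 pair, the smallest values 3 and 2 pairs allow. For Pol II (r = 0.062) and RAD21 (r = 0.0094, 0.292 and 0.235) the numbers did not pair the libraries in every case. CTCF and RAD21 depth is known only as list length, which limits every count of peaks.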
